A study of Mus musculus with 8 samples.

Results

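Khdc1a, AC125117.1, Hsf2bp and Olfr165 were 4 of the 119 genes in a table of RNA levels in the whole small intestine (SI) of wild type (WT) and Smarcad1-KO (KO) mice. They were taken by name, as genes of germline, olfactory or unplaced type that were low in WT and higher in KO, so the WT and KO values below chose them and are given as a description with no test. Khdc1a and AC125117.1 were at or next to 0 in WT and were read in all 4 KO libraries, and Hsf2bp had 26 to 43 reads in each WT library. Olfr165 goes against the description of nearly silent genes, since it had 292 to 474 reads in each WT library. Its WT mean of 5.77 RPKM stood at place 90 from the lowest of 119, though such a place depends on the length by which reads are divided.

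Both groups were on the C57BL/6 background and were numbered 1 to 4, with 4 WT and 4 KO libraries of mRNA from tissue that had been opened, washed, frozen and ground. KO mice carried Smarcad1 alleles with loxP sites around exons 12 to 14 and lost these exons through Vil-Cre, a Cre recombinase driven by the Villin promoter in intestinal epithelial cells. Muscle, stromal and immune cells of the same pieces of tissue do not express this Cre, and in bulk tissue more cells of a type and more RNA per cell cannot be told apart. The mice were male according to the study's methods, and the floxed allele is a single line. Age and whether the WT mice carried floxed alleles are not given in the sources used here.

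Germline genes are transcribed in oocytes, sperm precursors or early embryos, and in other tissues they are commonly held silent by DNA methylation and repressive histone marks. Olfactory receptor genes form the largest receptor family of the mouse and are typically expressed one at a time in sensory neurons of the nose. Smarcad1 is an ATP-dependent chromatin remodeler with a known part in keeping heterochromatin, which is the background to looking at such genes in its absence.

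The 8 libraries held between 56981718 and 78026422 mapped reads, and the 119 genes together took between 0.822% and 1.14% of them. All values are RPKM, reads per kilobase and per 1000000 mapped reads, with the kilobases taken over the whole genomic span of the gene, introns included. The depth was recovered from the values themselves, and it turned all 939 values above 0 into whole reads within 0.05 of a read. The targeted gene Smarcad1 fell from a WT mean of 0.334 ± 0.0288 RPKM to 0.235 ± 0.0308 RPKM (SD, n = 4), which is 29.5% lower with no overlap (two-sided p = 0.0286 by exact permutation, the least possible with 70 splits). The Smarcad1 value covers the whole gene and not the deleted exons alone, so it does not measure how complete the deletion was. Spreads are between the labelled replicates, which nothing states to be separate animals. The table lists genes that were chosen on these same libraries, so Smarcad1 and every other gene in it had already passed a test between WT and KO. Of 17 epithelial genes on a list for the tissue, 5 were in the table and all of them were lower in KO. They were the defensins Defa24, Defa22 and Defa26, with Itln1 and Ang4. Defa24, a Paneth cell defensin, had a WT mean of 2701 ± 392 RPKM. The rest of the list had no row, so the level of the epithelium as a whole was not seen. The part of these lower marker levels in the results was not tested.

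Khdc1a encodes a small protein with a KH domain, a fold that binds RNA, and belongs to a cluster of near copies known from oocytes and early embryos. It lies at chr1:21349641-21352200 (GRCm38) on the plus strand, and its 3 exons cover 1987 of 2560 bases. The first 120 coding bases, counted from the start codon, are shown for Khdc1a and its copies Khdc1b and Khdc1c to let the likeness be seen, with the 3 positions that differ in capitals.
Khdc1a: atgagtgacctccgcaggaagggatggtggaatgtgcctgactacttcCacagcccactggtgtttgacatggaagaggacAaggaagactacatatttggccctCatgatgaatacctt
Khdc1b: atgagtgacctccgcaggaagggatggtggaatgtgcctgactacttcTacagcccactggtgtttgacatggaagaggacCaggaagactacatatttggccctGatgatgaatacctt
Khdc1c: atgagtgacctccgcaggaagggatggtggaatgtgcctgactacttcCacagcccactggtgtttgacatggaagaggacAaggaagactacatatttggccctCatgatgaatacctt

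Over the aligned coding bases Khdc1a was identical to Khdc1b at 350 of 381 positions (91.9%). It was identical to Khdc1c at 500 of 501 positions (99.8%), and the 1 difference is T416C, counted from the start codon with the base of Khdc1a first. Bases 386 to 446 of both are shown with that position in capitals, since it is the only coding position at which a read can tell these 2 genes apart.
Khdc1a: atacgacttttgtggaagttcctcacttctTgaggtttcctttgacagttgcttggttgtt
Khdc1c: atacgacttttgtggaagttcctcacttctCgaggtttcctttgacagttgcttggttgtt

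Of all 50-base windows of the Khdc1a transcript, 43.5% also occurred in transcripts of other genes, and 42.2% in Khdc1c. The study kept uniquely mapped reads, so the level of Khdc1a rests on the remaining stretches and its split from Khdc1c is uncertain. Neither Khdc1b nor Khdc1c had a row in the table, and how they changed was not analysed here.

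In WT, Khdc1a was listed at 0 in replicates 1, 2 and 3 and at 0.0111 RPKM in replicate 4. In KO it stood at 0.111 RPKM in replicate 1, 0.0266 RPKM in replicate 2, 0.167 RPKM in replicate 3 and 0.265 RPKM in replicate 4. The groups did not overlap, but KO replicate 2 came close to the WT libraries while replicate 4 was far above them.

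These levels rest on few reads. WT held 0, 0, 0 and 2 reads of Khdc1a, and KO held 21, 4, 26 and 53 reads, in the order of the replicates. A count of 0 was taken to allow up to 3 reads, called the floor. In the 3 WT libraries without a read, that is between 0.0185 and 0.0206 RPKM. The exact 95% Poisson interval of KO replicate 2 ran from 0.00726 to 0.0682 RPKM and that of WT replicate 4 from 0.00134 to 0.0401 RPKM, so these 2 libraries were not distinguishable at this depth. Such intervals and limits cover counting error only, since amplified reads are not independent molecules.

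The mean level was higher in KO, going from 0.00278 ± 0.00555 to 0.142 ± 0.1001 RPKM (SD, n = 4), a difference of 0.140 RPKM. The ratio of the pooled rates was 47.6, with an exact 95% counting interval from 12.9 to 399. That wide interval reflects the 2 reads on which the WT level rests, both in 1 library. Without WT replicate 4 no WT read is left, and the KO mean is 7.21-fold the floor of 3 reads per library.

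AC125117.1 is an older clone-based name. The row spans chr14:51312848-51317768 on GRCm38, which has the same start and end as a transcript of Gm21718 in GENCODE M21, on the plus strand with 4 exons of 516 bases in all. Bases 217 to 516 of the transcript are shown, because this gene had no read in any WT library and part of this stretch lies under another gene, with the 157 bases of its last exon in capitals.
AC125117.1: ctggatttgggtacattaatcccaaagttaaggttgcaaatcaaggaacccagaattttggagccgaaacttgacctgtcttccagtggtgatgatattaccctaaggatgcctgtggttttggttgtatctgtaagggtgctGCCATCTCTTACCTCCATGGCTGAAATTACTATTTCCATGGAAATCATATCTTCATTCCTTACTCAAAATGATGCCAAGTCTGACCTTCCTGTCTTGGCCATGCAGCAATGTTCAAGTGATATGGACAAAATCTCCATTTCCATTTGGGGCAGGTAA

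The capitals also mark the stretch that lies under another gene, since an exon of 4930597G03Rik, a noncoding RNA on the opposite strand, covers all 157 bases. Of the 50-base windows of AC125117.1, 23.1% occurred in that transcript. Whether the counting used strand is not given for this tissue in the sources used here, so reads in the last exon cannot be assigned to one of the pair. A processed pseudogene, Gm7106, lies in an intron. The 516 bases begin with ATG, end with TAA and have 0 stop codons between in that frame, and whether the RNA is translated was not tested.

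AC125117.1 was listed at 0 in all 4 WT libraries. In KO it stood at 0.182 RPKM in replicate 1, 0.191 RPKM in replicate 2, 0.757 RPKM in replicate 3 and 0.737 RPKM in replicate 4. The KO libraries fell into a lower and a higher pair, and all of them lay above WT.

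The reads behind these values numbered 66, 55, 227 and 283 in the KO libraries, in the order of the replicates. A count of 0 allows between 0.00867 and 0.0107 RPKM in WT. The KO mean of 0.467 ± 0.324 RPKM (SD, n = 4) was at least 47.3-fold higher than the mean of these limits. The lowest KO library alone was at least 17.0-fold higher than the highest of them, so a level like that of the lowest KO library was within reach of the WT depths.

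**Figure D1:**
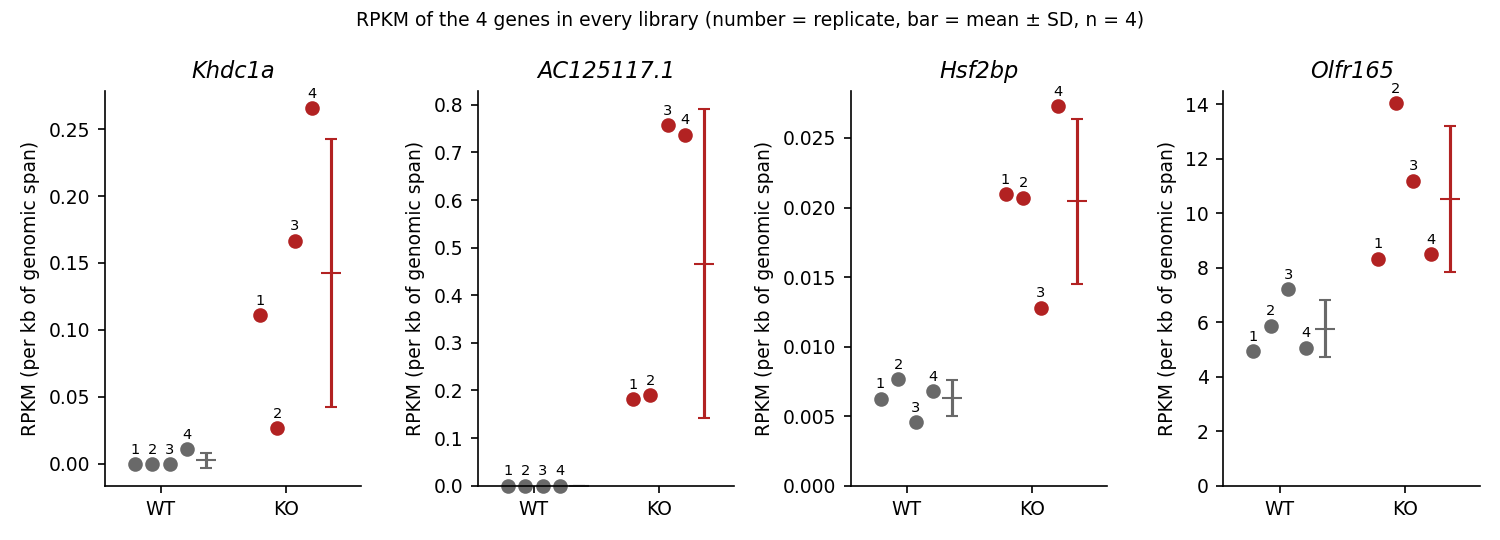
RPKM of Khdc1a, AC125117.1, Hsf2bp and Olfr165 per kilobase of genomic span, 1 panel a gene with its own scale, where each point is a library with its replicate number and the bar is the mean ± SD of 4. All KO points lie above all WT points in each panel, with KO replicate 2 of Khdc1a (0.0266) nearest to WT.

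Hsf2bp encodes the HSF2-binding protein, which acts with BRCA2 in the repair of DNA breaks during meiosis. It lies on the minus strand at chr17:31944769-32034508 (GRCm38), with 8 exons of 2867 bases in a span of 89740 bases. Only 0.142% of its 50-base windows occurred in transcripts of other genes.

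Its WT levels were 0.00626, 0.00767, 0.00458 and 0.00681 RPKM in replicates 1 to 4. Its KO levels were 0.0210, 0.0207, 0.0128 and 0.0273 RPKM. The groups did not overlap, with KO replicate 3 lowest and still 1.67-fold above the highest WT library.

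Hsf2bp was low but not silent in WT, where the libraries held 26 to 43 reads each and 141 in all. KO libraries held 70 to 191 reads and 509 in all. The mean went from 0.00633 ± 0.00130 to 0.0204 ± 0.00593 RPKM (SD, n = 4), a ratio of 3.23. Gm17572, a processed pseudogene, and Gm25883, a small noncoding RNA, lie inside its span and share no exon base with it.

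Olfr165 encodes an olfactory receptor, a G protein-coupled receptor of the kind that detects odorants. It lies on the minus strand at chr16:19407039-19408078 (GRCm38) as a single exon of 1040 bases, and none of its 50-base windows occurred in a transcript of another gene.

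Its WT levels were 4.93, 5.87, 7.21 and 5.06 RPKM in replicates 1 to 4. Its KO levels were 8.33, 14.04, 11.2 and 8.50 RPKM. The groups did not overlap, but the lowest KO library was only 1.16-fold above the highest WT library.

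The mean of Olfr165 went from 5.77 ± 1.05 to 10.5 ± 2.69 RPKM (SD, n = 4), a ratio of 1.82. It was well read in both groups, with 292 to 474 reads in WT and 640 to 856 reads in KO. Among the 119 genes, 34 had a greater ratio of KO to WT. It was the only gene in the table with a symbol of the Olfr family, and none of 15 genes of olfactory signalling was in it. The table holds a small part of all genes, so nothing is read from these counts.

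**Figure D2:**
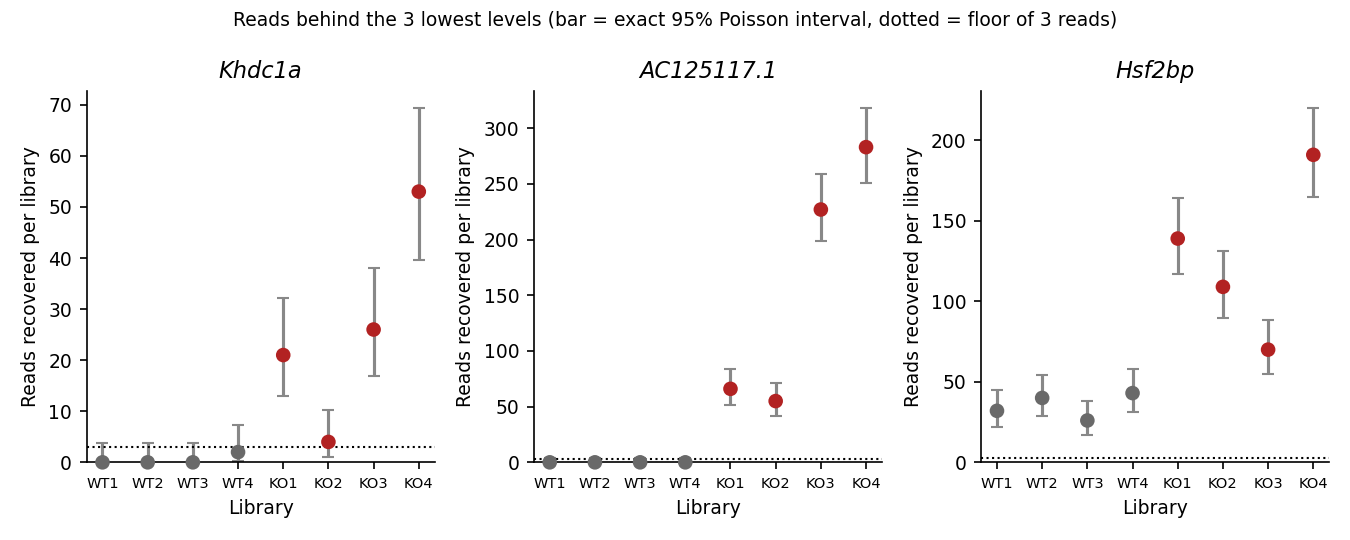
Reads recovered in each library for Khdc1a, AC125117.1 and Hsf2bp, with exact 95% Poisson intervals and a dotted line at the floor of 3 reads. Khdc1a rests on 2 reads in WT and 4 to 53 in KO, AC125117.1 on 0 and 55 to 283, and Hsf2bp on 26 to 43 and 70 to 191.

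For 2 of the 4 genes, Hsf2bp and Olfr165, a promoter window was found in the RefSeq table of GRCm38.p6. Each is 300 bases in the direction of the gene, 250 before and 50 after the annotated start, and both are shown with CG dinucleotides, the sites of DNA methylation in mammals, in capitals. The Hsf2bp window is chr17:32034459-32034758, minus strand, and the Olfr165 window is chr16:19407968-19408267, minus strand. For Hsf2bp the RefSeq start is base 32034508, where its span above also starts. For Olfr165 it lies inside the exon given above, which starts at base 19408078. The 50 bases after it begin with ATG, so the Olfr165 window may not be its promoter.
Hsf2bp: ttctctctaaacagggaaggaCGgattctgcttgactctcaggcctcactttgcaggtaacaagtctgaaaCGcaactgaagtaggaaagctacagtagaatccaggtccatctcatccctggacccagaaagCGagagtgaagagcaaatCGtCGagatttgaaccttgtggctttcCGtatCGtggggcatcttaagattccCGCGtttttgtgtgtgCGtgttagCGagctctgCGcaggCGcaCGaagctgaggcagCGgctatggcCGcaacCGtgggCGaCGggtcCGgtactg
Olfr165: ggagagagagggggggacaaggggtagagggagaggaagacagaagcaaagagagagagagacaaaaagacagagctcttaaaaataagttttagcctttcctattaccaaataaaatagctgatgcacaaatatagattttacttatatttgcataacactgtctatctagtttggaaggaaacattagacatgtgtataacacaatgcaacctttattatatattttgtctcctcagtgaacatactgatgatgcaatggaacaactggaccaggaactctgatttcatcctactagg

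The windows differ in CG content. Hsf2bp held 20 CG dinucleotides, more than 73.5% of the 32851 promoters in the table, whose median was 7, while Olfr165 held 0. The Olfr165 counts describe its window only, for CG and for the motifs below. TTCCCGC, an E2F-type motif, was searched on both strands after the sequences had been seen. It occurred 1 time in Hsf2bp, from base 201 of the window, and 0 times in Olfr165, and 4.60% of all promoters hold it. CACGTG, the E-box, occurred in neither, and 7.15% of all promoters hold it. No methylation or binding was measured in these libraries.

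The order of the levels depends on the length used. Per kilobase of genomic span, the KO means ran from Olfr165 (10.5 RPKM) through AC125117.1 (0.467 RPKM) and Khdc1a (0.142 RPKM) to Hsf2bp (0.0204 RPKM). The study's methods name counting over exons, which make up 77.6% of the span of Khdc1a, 10.5% of AC125117.1, 3.19% of Hsf2bp and all of Olfr165. The values show only that the length used was the whole span. Whether reads in introns were counted too cannot be told from them. All reads were then taken as exonic and rescaled to exonic kilobases of the annotated transcript with the same start and end. The KO means were 10.5 ± 2.69 for Olfr165, 4.45 ± 3.09 for AC125117.1, 0.640 ± 0.186 for Hsf2bp and 0.184 ± 0.129 RPKM for Khdc1a.

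Khdc1a and Hsf2bp thus changed places, provided that all their reads came from exons. Khdc1a was 6.97-fold above Hsf2bp in KO per span, and Hsf2bp was 3.49-fold above Khdc1a per exonic kilobase. Per exonic kilobase, Hsf2bp ranged from 0.143 to 0.240 RPKM in WT and from 0.401 to 0.854 RPKM in KO. The KO libraries of Khdc1a, from 0.0343 to 0.342 RPKM, then lay below all KO libraries of Hsf2bp. AC125117.1, from 1.73 to 7.22 RPKM, lay between Hsf2bp and Olfr165 without overlap of either in KO. The ratio of KO to WT within a gene is the same on both scales.

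**Figure D3:**
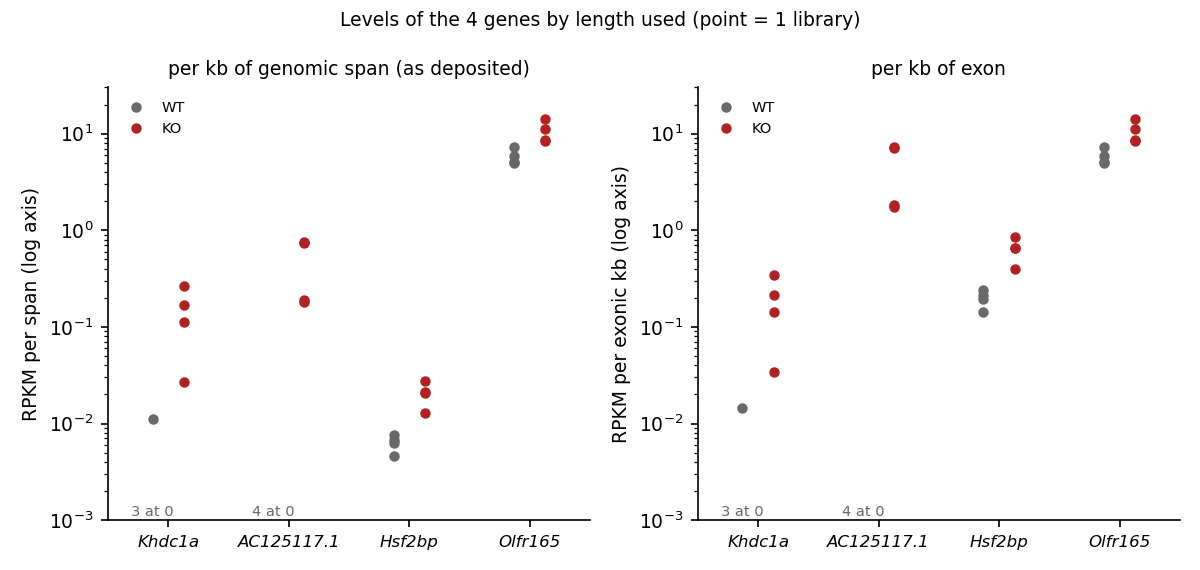
Levels of the 4 genes in each library on a log axis, per kilobase of genomic span (left) and per kilobase of exon (right), with WT in grey, KO in red and the number of libraries at 0 written at the foot. Hsf2bp is the lowest in KO per span (mean 0.0204 RPKM). It lies above Khdc1a per exonic kilobase (0.640 against 0.184 RPKM), where all reads are taken as exonic.

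All 4 genes had their lowest KO library above their highest WT library, in a table where 58 of 119 genes (48.7%) did so. The limma model on log2(RPKM + 0.1) called 58 of 119 genes (48.7%) higher in KO at a Benjamini-Hochberg adjusted p under 0.05, which is 61.7% of its calls, or 50% with KO lowered by 0.2 on the log2 scale. Of the 4 genes, 3 were among them, and Hsf2bp was not. A pseudocount of 0.1 is large beside the Hsf2bp level and left a log2 difference of 0.18 ± 0.09 (SE), and with a pseudocount of 0.01 all 4 were called. The genes were chosen on this contrast, so nothing is read from these counts.

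Another 15 of the listed genes were higher in KO with a WT mean under 0.1 RPKM, and they had separate groups too. That limit is per kilobase of genomic span, so it also takes in genes with many reads over a long span. Pgcp, for example, had 9915 reads in WT. Of these, Kirrel2, an adhesion protein of the immunoglobulin family, and Sec14l4, of the Sec14 family of lipid-binding proteins, were as scarce in WT as Khdc1a, with at most 2 reads in any WT library. Kirrel2 went from a WT mean of 0.000778 ± 0.00156 to a KO mean of 0.0784 ± 0.0222 RPKM (SD, n = 4). Sec14l4 went from 0.00143 ± 0.000962 to 0.0739 ± 0.0410 RPKM. AC125117.1 was the only gene of the 119 listed at 0 in every WT library.

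**Figure D4:**
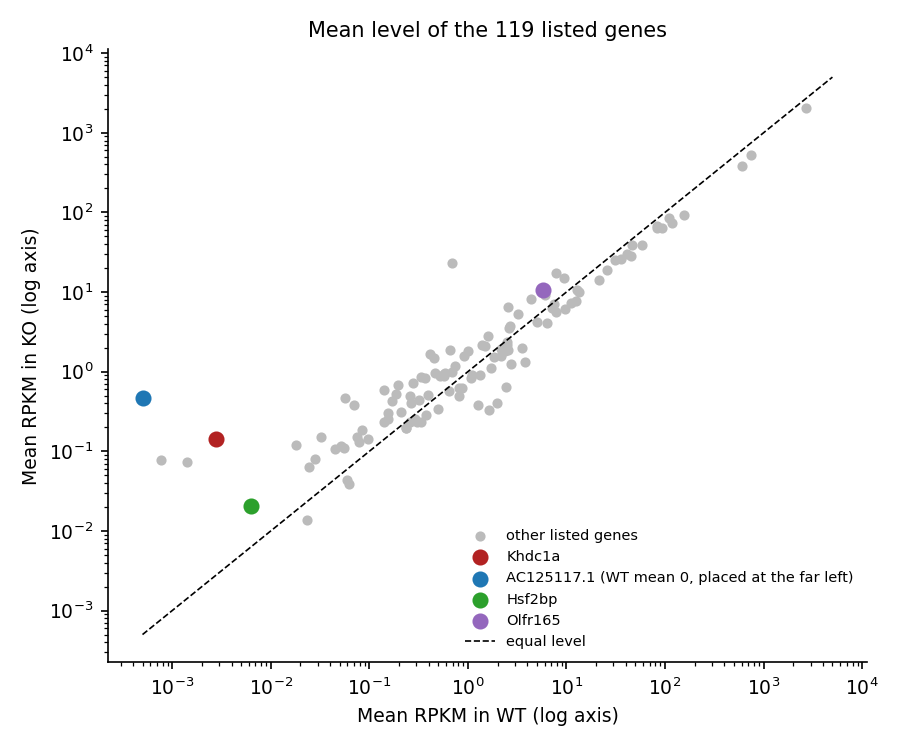
Mean RPKM in WT (x) against KO (y) of the 119 genes on log axes, with the dashed line at equal level and AC125117.1, whose WT mean is 0, placed at the far left. Per kilobase of genomic span, Khdc1a, AC125117.1 and Hsf2bp are among the 5 lowest in WT, but by WT reads Hsf2bp is at place 9. Olfr165 (5.77 and 10.5 RPKM) lies among the well-read genes near the line.

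The KO libraries differed from each other most in Khdc1a and AC125117.1. The SD among KO libraries was 70.3% of the mean for Khdc1a and 69.4% for AC125117.1, the widest and the next widest of the 119 genes. It was 29.0% for Hsf2bp and 25.6% for Olfr165, at places 14 and 19. The median was 14.1% over all 119 genes. Over the 15 other genes under the limit per span in WT it was 21.6%, with a range of 12.2% to 55.5%. Several of these had far more reads than Khdc1a and AC125117.1, so they are not a match for them in read number.

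Counting error was smaller than each of these spreads. The SD that counting alone gives, from the mean number of KO reads, was 19.6% of the mean for Khdc1a, 7.96% for AC125117.1, 8.86% for Hsf2bp and 3.72% for Olfr165. The highest KO library stood above the lowest by 9.96-fold for Khdc1a, 4.17-fold for AC125117.1, 2.13-fold for Hsf2bp and 1.68-fold for Olfr165.

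**Figure D5:**
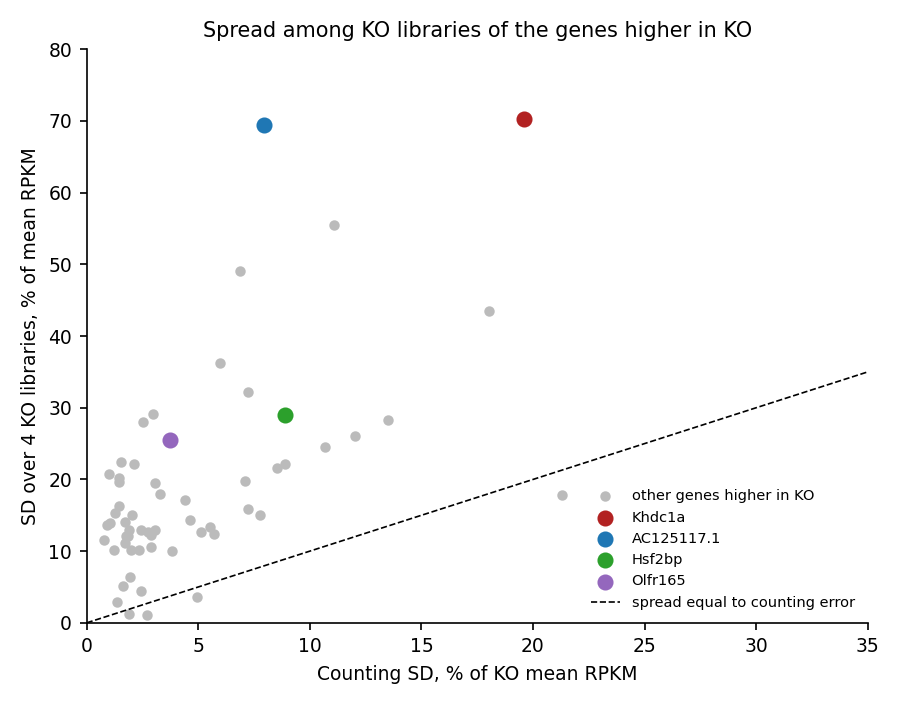
SD among the 4 KO libraries against the SD that counting alone gives, both as a percentage of the KO mean RPKM, for the 59 genes higher in KO, with the dashed line where they are equal. Khdc1a (70.3% against 19.6%) and AC125117.1 (69.4% against 7.96%) lie above all other points.

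The genes did not share a highest library. KO replicate 4 held the highest level of Khdc1a (46.6% of its summed KO RPKM) and of Hsf2bp (33.4%). KO replicate 3 held the highest level of AC125117.1 (40.6%), just above replicate 4 (39.5%), and the lowest level of Hsf2bp (15.7%). KO replicate 2 held the lowest level of Khdc1a (4.68%) and the highest level of Olfr165 (33.4%).

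The genes most like each in pattern were sought by Pearson's r of log2(RPKM + 0.01) over the 8 libraries. Since WT and KO form separate groups of 4, such an r mostly carries the group difference and is given only as a description. Khdc1a was most like AC125117.1 (r = 0.95), Pgcp, a secreted carboxypeptidase (r = 0.94), and Tlr4, the receptor for bacterial lipopolysaccharide (r = 0.92). AC125117.1 was like Kirrel2 (r = 0.96) and Klrb1c, a receptor of natural killer cells (r = 0.95). Hsf2bp was most like Slfn4, of the Schlafen family (r = 0.95), Patz1, a zinc finger transcription factor (r = 0.94), and Klrb1c (r = 0.92). Olfr165 was most like AI480653 (r = 0.97), Dlec1 (r = 0.95) and Acer1, a ceramidase (r = 0.94).

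No 2 of the 4 genes lie on the same chromosome, and none lies next to another gene of the table. The nearest was Ang4, a Paneth cell antimicrobial ribonuclease, 0.446 Mb from AC125117.1. Cyp4f16 lay 0.502 Mb from Hsf2bp, Abcc5 0.923 Mb from Olfr165, and Oprk1 15.7 Mb from Khdc1a. Of the 12 annotated genes that overlap or flank the 4 genes most closely, 0 were in the table. They include Rrp1b, which starts 1.59 kb from Hsf2bp, and the pseudogene Gm16329, 1.80 kb from Khdc1a. Rrp1b is the only protein-coding gene among them, and the table holds a small part of all genes. So nothing about the neighbours is read from this 0.

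The table holds 119 genes that had passed a test, a small part of all genes, so a short list has few or 0 genes in it. Nothing about a group of genes is read from the counts that follow. Of 48 genes of meiosis and the germline, Hsf2bp was the 1 in the table, and of 10 genes of the Khdc1 and oocyte KH domain family, Khdc1a was the 1. Of 21 genes of the embryonic 2-cell stage, 0 were in it. Of the marker lists for other cell types, 0 of 8 genes for smooth muscle, 0 of 10 for lymphoid cells (mostly T and B cell genes) and 2 of 15 for pancreatic acinar cells (Clps and Pnliprp2, both lower in KO) were in the table. Klrb1c, the natural killer cell receptor named above, was not on the lymphoid list, and its mean went from 0.0703 ± 0.0149 to 0.382 ± 0.139 RPKM (SD, n = 4) with no overlap. The part of such cells in the levels of the 4 genes was not tested. Genes without a row in the table were not analysed here.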

How the data were processed

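Groups came from the genotype labels. Adapters were trimmed with Trim Galore (0.4.1), and reads were mapped to GRCm38 with HISAT2 (2.0.1). According to the study's methods, uniquely mapped reads were counted over exons of merged transcripts in SeqMonk, and genes were listed by the authors with DESeq2. The deposited values are RPKM, used here for the 119 listed genes, and the authors' FDR column was not used. Tested on them, the values are per kilobase of genomic span. Read numbers were recovered as RPKM × span × depth, with the depth as the smallest that makes all values whole. This was tested on simulated data and found 8 of 8 depths.

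Levels are means ± SD over 4 libraries. Floors are 3 reads per library, and Poisson intervals are exact at 95%. For the background count limma (3.58.1, R 4.3.3) was run on log2(RPKM + 0.1) over all 119 genes, since the unit is not counts, with Benjamini-Hochberg adjustment. In 20 simulated data sets of 119 genes, 60 of them changed by 1 on the log2 scale, it recovered 98.3% with 1.99% false calls. The changes and normal noise were added on the log2(RPKM + 0.1) scale itself, without read counts. The pseudocount shrinks real changes of genes near 0 on that scale, so the recovery rate does not apply to them. Whole reads were obtained for 100% of values, and voom on those reads was an alternative, with other pseudocounts, filters and scalings.

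The genes and lists were chosen with earlier results of these data known. Named genes are the 4, Smarcad1, other genes higher in KO with a WT mean under 0.1 RPKM, genomic neighbours, and the 3 most alike in pattern. 1 gene that this rule gave is not reported here. Exons came from GENCODE M21 and promoters from RefSeq, with Python 3.11.15.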

Additional observations from a re-analysis of the deposited data

Results flagged for a closer look

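Khdc1a in WT replicate 4 stood apart from the other WT libraries, with 2 reads (0.0111 RPKM) against 0 in each of the others. The gap to the nearest of the others was the whole range of the group (a quotient of 1, above Dixon's 95% critical value for 4 samples). It was 1 of 11 groups tested, and chance flags about 1 in 20 for continuous values. With all the others at 0 the quotient is 1 for any read count, so that rate does not hold here. A difference of 2 reads is within the 3 reads that a count of 0 allows.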

How the results depend on the processing

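Of 92 recomputed values, 88 were classed as unchanged, and no difference changed direction. A count was classed so within a factor of 1.5 of the main count, so 47 genes with separate groups, with KO lowered by 0.2, passed beside 58. A mean difference had to keep its sign and stay within the spread between replicates. For Smarcad1, medians and lowered KO were judged by a permutation p under 0.05 instead. Requiring a mean of at least 0.5 RPKM left 77 genes, among them Olfr165 of the 4, and gave 28 genes called higher, 1 of the 4 called and 28 genes with separate groups, by its construction. With medians the Smarcad1 difference was -0.0974 RPKM (exact permutation p = 0.0571). Leaving out 1 library at a time gave 57 to 58 limma calls, 3 of the 4 genes called in each fit, and mean differences of 0.0987 to 0.178 RPKM for Khdc1a, 0.370 to 0.562 for AC125117.1, 0.0118 to 0.0167 for Hsf2bp, 3.58 to 5.48 for Olfr165 and -0.112 to -0.0854 for Smarcad1. Hsf2bp was called with a pseudocount of 0.01, with an intensity trend and with voom on the recovered reads. With a replicate block in the model limma called 57 genes higher, 3 of the 4 among them. Deviations of same-numbered libraries from their group means had correlations of 0.27, 0.21, -0.11 and -0.03 over 77 genes. These genes were chosen for differing between the groups, so the correlations cannot exclude a pairing, and the labels name none. Depth limits the WT levels of Khdc1a, with 0 to 2 reads a library, and of AC125117.1, with 0 in each, and the shared sequence with Khdc1c and the antisense exon at AC125117.1 limit what their reads can be assigned to.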
